A study of Solanum lycopersicum x Solanum pennellii and Solanum lycopersicum with 7 samples.

Results

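The 10 genes described here encode catalytic subunits of cellulose synthase (CesA) in tomato. They were chosen by identifier, with earlier results of these data known, as a set that holds CesA genes of primary and of secondary cell walls. All 10 were found among the 34725 genes of the leaf count tables. Cellulose synthase complexes sit in the plasma membrane and spin glucan chains out of UDP-glucose, and the chains join into the fibrils that carry the load of the cell wall. In Arabidopsis, one set of subunits builds the complexes of growing cells with a primary wall, and a separate set builds those of the thick secondary walls of xylem vessels and fibres. Arabidopsis mutants that lack a subunit of the secondary wall set have collapsed xylem. The deposited tables do not pair tomato identifiers with a subunit name or a wall type, so the genes appear below by identifier.

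Leaf RNA came from field-grown plants of IL2-6 and of IL3-2, with 3 libraries of each line. Both are introgression lines, in which a chromosome segment of the wild tomato Solanum pennellii replaces that of a cultivated tomato (Solanum lycopersicum), and per the labels IL2-6 has enhanced biomass production while IL3-2 is given no phenotype. The control line M82 has 1 library, deposited as variant records without gene counts, so it gives no level for these genes. Without such a level, a decrease in IL2-6 and an increase in IL3-2 cannot be told apart. Below, a fall means only a lower level in IL2-6 than in IL3-2. The labels name neither plant age nor which leaf was taken. They do not say whether replicates were separate plants, and p-values may therefore reflect technical spread only.

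The IL2-6 libraries held 18479252 to 21320790 gene counts and the IL3-2 libraries 28828109 to 40146308. A lane and flow cell code appears in the labels of IL3-2 and not in those of IL2-6, and an unstranded single-end and a stranded paired-end kit are both named without saying which library used which. Line and library batch therefore cannot be told apart, and their part in the differences below was not tested. The genes belong to one family of related sequences, and the sources used here do not say how reads shared between members were counted. The leaf label was not checked against marker genes, since no identifier is paired with a name.

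The lines were compared to see which CesA genes differ between a line labelled for enhanced biomass and another line of the same kind. All 10 genes passed the filter on low counts, Solyc08g005280.1 through its IL3-2 libraries alone, so that its direction was partly set by the filter. Of these, 8 were lower in IL2-6 and none was higher, or 7 of 9 without Solyc08g005280.1 (adjusted p under 0.05 by Benjamini-Hochberg over all 20823 genes tested, quasi-likelihood test of edgeR). Over all genes tested, 63.3% were called, with 33% lower and 30.4% higher in IL2-6. Because earlier results were known at the choice of members, these counts describe the members and do not test the family. At an unadjusted p under 0.05, 0 members were higher in IL2-6, against 32.1% of all tested genes, and DESeq2 and limma-voom also called 8 lower and 0 higher. Of the 8 falls, 4 were at least 2-fold, or 3 among the 9 genes without Solyc08g005280.1. Over all tested genes, 17% were called with a difference of that size, 12.1% lower and 4.89% higher in IL2-6. The median log2 fold change, IL2-6 minus IL3-2, was −0.50 over the 10 members and −0.01 over all tested genes. Scaling by raw library totals moved the median of all genes to −0.17, and the share of all calls that were higher in IL2-6 was then 29.4%, against 48.0% with the scaling used here. The same count of members, 8 lower and 0 higher, was obtained with raw totals. The CPM values of the lines did not overlap for 8 of the 10 members, and for 67.7% of all tested genes.

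**Figure D1:**
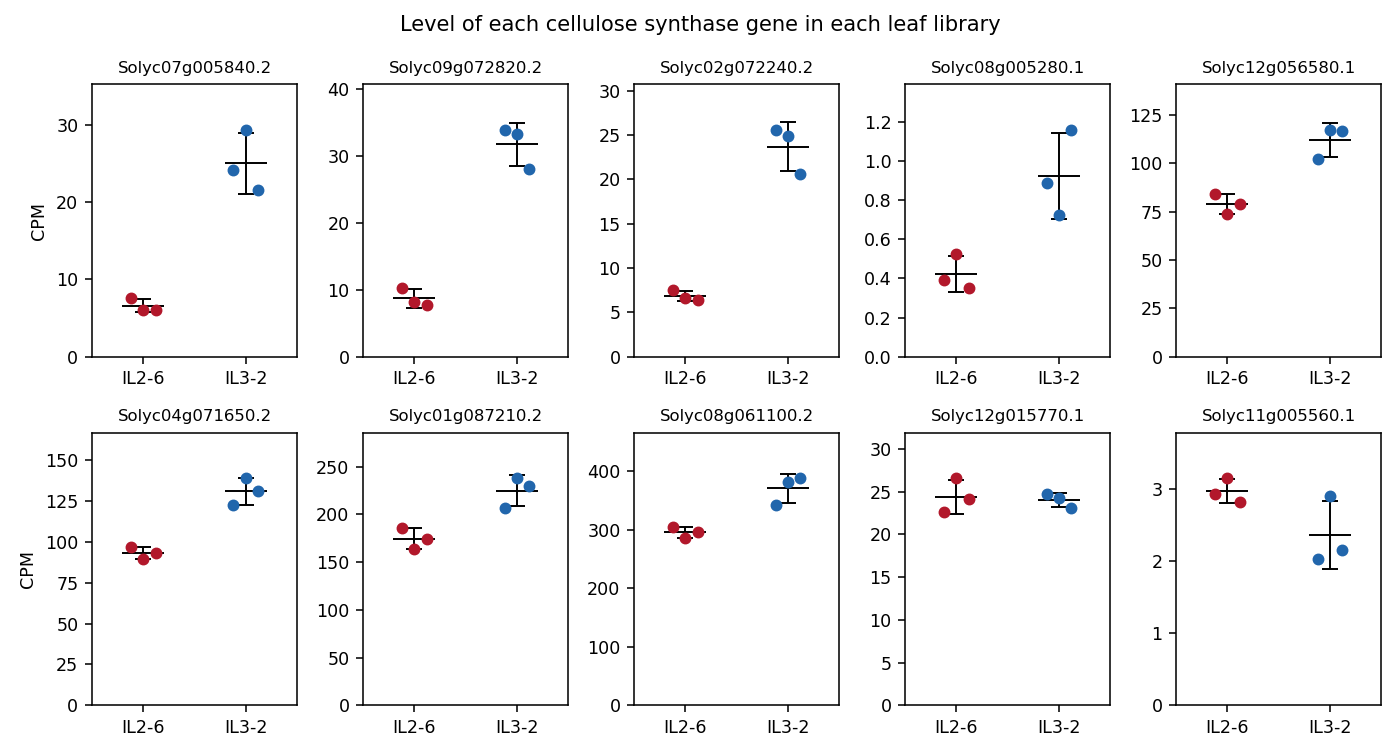
Counts per 1000000 (CPM, on TMM-scaled library totals) of the 10 cellulose synthase genes, ordered by log2 fold change, in 3 IL2-6 libraries (red) and 3 IL3-2 libraries (blue), 1 point per library; horizontal bars are the mean and error bars 1 SD, and each panel has its own vertical axis starting at 0. The lines do not overlap in 8 panels, with IL2-6 lower, and overlap for Solyc12g015770.1 and Solyc11g005560.1.

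The largest falls were in Solyc07g005840.2, Solyc09g072820.2 and Solyc02g072240.2, which were 3.45-fold to 3.79-fold lower in IL2-6. Solyc07g005840.2 had 7.54, 6.06 and 6.10 CPM (counts per 1000000 of the scaled library total) in IL2-6 replicates 1, 2 and 3, against 24.2, 29.4 and 21.5 CPM in the IL3-2 replicates. The log2 fold change was −1.92 (standard error 0.12), a 3.79-fold lower level in IL2-6 (edgeR adjusted p = 7.34e-09). The highest IL2-6 library lay well under the lowest IL3-2 library.

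Solyc09g072820.2 had 10.2, 8.22 and 7.66 CPM in the IL2-6 libraries, against 33.9, 33.2 and 28.0 CPM in those of IL3-2. On the log2 scale this was −1.86 (standard error 0.10), a 3.62-fold lower level in IL2-6 (edgeR adjusted p = 1.60e-09). Solyc02g072240.2 had 7.49, 6.59 and 6.40 CPM in IL2-6 libraries, against 25.6, 24.9 and 20.5 CPM in IL3-2 libraries. It differed by −1.79 on the log2 scale (standard error 0.10), 3.45-fold lower in IL2-6 (edgeR adjusted p = 2.23e-09). Neither gene's libraries overlapped between the lines, and for all 3 genes the IL3-2 library with the lowest value was replicate 3. Between 5.33% and 5.85% of all tested genes had a lower log2 fold change than these genes. In bulk leaf RNA, fewer cells of a type that expresses a gene and less of its RNA per cell cannot be told apart.

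Those falls rested on 104 to 209 counts per library in IL2-6 and 737 to 1185 in IL3-2. The replicates of a line varied by 8.56% to 15.6% (coefficient of variation) in IL2-6, where counting alone gives 7.73% to 8.90%. In IL3-2 they varied by 10.1% to 15.9%, where counting gives 2.99% to 3.46%.

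A further 4 genes fell by less than 2-fold. Solyc12g056580.1 averaged 78.9 ± 5.28 CPM in the IL2-6 libraries and 112 ± 8.55 CPM in the IL3-2 libraries (SD, n = 3 each), which is −0.50 as a log2 fold change (standard error 0.07, edgeR adjusted p = 1.10e-05). Solyc04g071650.2 averaged 93.1 ± 3.76 CPM in the IL2-6 libraries and 131 ± 8.19 CPM in the IL3-2 libraries (SD, n = 3 each), or −0.49 as a log2 fold change (standard error 0.06, edgeR adjusted p = 3.84e-06). These amount to levels 1.42-fold and 1.40-fold lower in IL2-6.

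Solyc01g087210.2 had 186, 164 and 174 CPM in the IL2-6 libraries and 206, 238 and 230 CPM in the IL3-2 libraries, −0.36 as a log2 fold change (standard error 0.06, edgeR adjusted p = 1.50e-04). Solyc08g061100.2, the member with the most counts in each library, had 304, 286 and 296 CPM in IL2-6 and 343, 382 and 388 CPM in IL3-2. It was 1.26-fold lower in IL2-6, −0.33 as a log2 fold change (standard error 0.05, edgeR adjusted p = 1.18e-04). The libraries of the lines did not overlap for any of these 4 genes, and between 21.6% and 28.2% of all tested genes had a lower log2 fold change than each of them.

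Solyc08g005280.1 had few counts, with 8, 9 and 7 counts in the IL2-6 libraries and 27, 25 and 49 counts in those of IL3-2, which are 0.353 to 0.525 CPM in IL2-6 and 0.727 to 1.16 CPM in IL3-2. Its change was −1.15 on the log2 scale (standard error 0.32, edgeR adjusted p = 0.00548), and the 95% interval ran from −1.83 to −0.48. Without IL3-2 replicate 3, the highest library, it was −0.93, under the 2-fold limit. The adjusted p over all alternatives tried ran from 0.00215 to 0.0336.

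The remaining 2 genes did not pass the test. Solyc12g015770.1 had 22.6, 26.5 and 24.1 CPM in the IL2-6 libraries and 24.7, 24.3 and 23.0 CPM in the IL3-2 libraries. Its log2 fold change of 0.023 had a 95% interval of −0.13 to 0.17 (edgeR adjusted p = 0.785), which does not reach the size of any of the 8 falls, and its sign turned in 3 alternatives. Solyc11g005560.1 had 2.94, 3.15 and 2.82 CPM in the IL2-6 libraries and 2.04, 2.91 and 2.15 CPM in the IL3-2 libraries. Its log2 fold change was 0.33 with a 95% interval of −0.04 to 0.69 (edgeR adjusted p = 0.108), from 54 to 60 counts per library in IL2-6 and 62 to 100 in IL3-2. Without IL3-2 replicate 2, the library that overlaps those of IL2-6, it was 0.50 (edgeR adjusted p = 0.0223), within a range of 0.0223 to 0.410 over the alternatives.

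**Figure D2:**
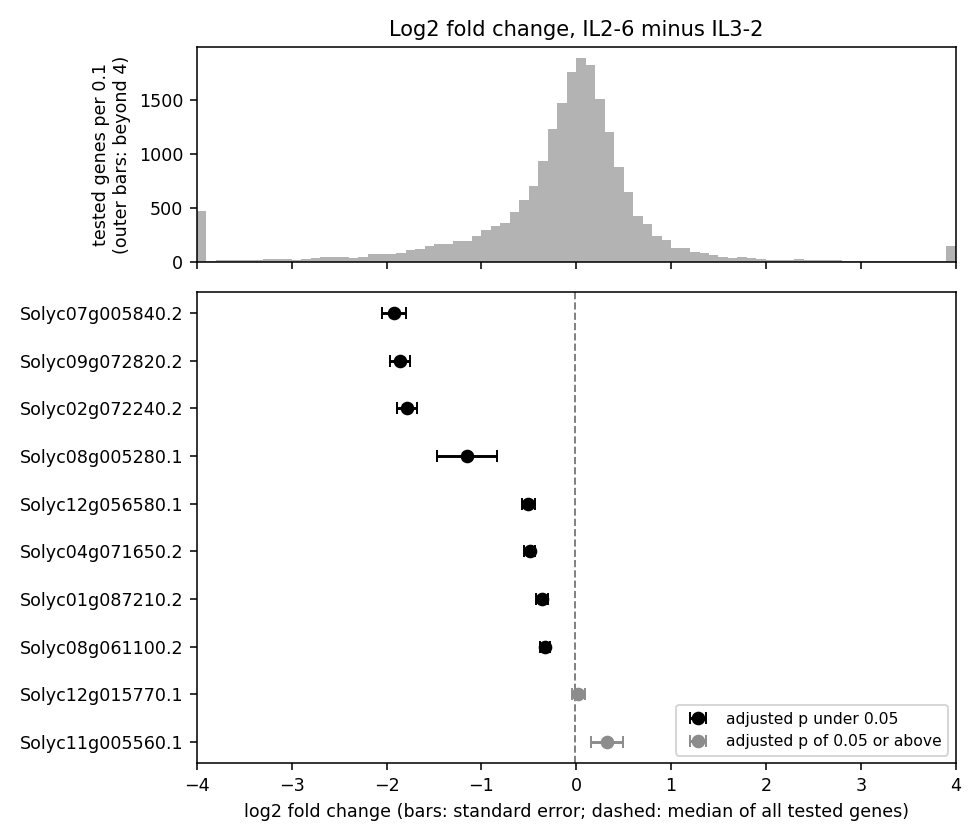
Log2 fold change, IL2-6 minus IL3-2, of all 20823 tested genes (upper panel, number of genes per bin of 0.1, values beyond 4 in either direction in the outer bars) and of the 10 cellulose synthase genes (lower panel, points with standard errors; the dashed line is the median of all tested genes, −0.01). Solyc07g005840.2, Solyc09g072820.2 and Solyc02g072240.2 lie together from −1.92 to −1.79, the genes called with falls under 2-fold lie from −0.50 to −0.33, and the genes in grey did not pass the test.

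Because both lines' libraries were scaled with estimated factors, the members were also set against each other within each library, where no scaling factor enters. Per 100 counts of Solyc08g061100.2, Solyc09g072820.2 had 3.36, 2.87 and 2.59 counts in the IL2-6 libraries and 9.89, 8.69 and 7.23 in the IL3-2 libraries. Solyc07g005840.2 had 2.22 ± 0.227 such counts in IL2-6 and 6.77 ± 1.10 in IL3-2, and Solyc02g072240.2 had 2.31 ± 0.150 in IL2-6 and 6.42 ± 1.08 in IL3-2 (SD, n = 3 each). For each of the 3 genes the lines stood apart within the family as they did in CPM. Solyc08g061100.2 was itself 1.26-fold lower in IL2-6, which raises every such ratio in that line. The genes that did not pass the test stood apart the other way on this measure, without overlap, although their CPM values overlapped. That separation is relative to Solyc08g061100.2 and does not show a higher level in IL2-6. Solyc12g015770.1 had 7.42, 9.27 and 8.14 such counts in the IL2-6 libraries and 7.19, 6.35 and 5.94 in the IL3-2 libraries. Solyc11g005560.1 had 0.966, 1.10 and 0.954 in the IL2-6 libraries and 0.594, 0.760 and 0.555 in the IL3-2 libraries. Solyc01g087210.2, in contrast, had 59.1 ± 1.99 such counts in IL2-6 and 60.5 ± 1.52 in IL3-2 (SD, n = 3 each), and the libraries overlapped.

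**Figure D3:**
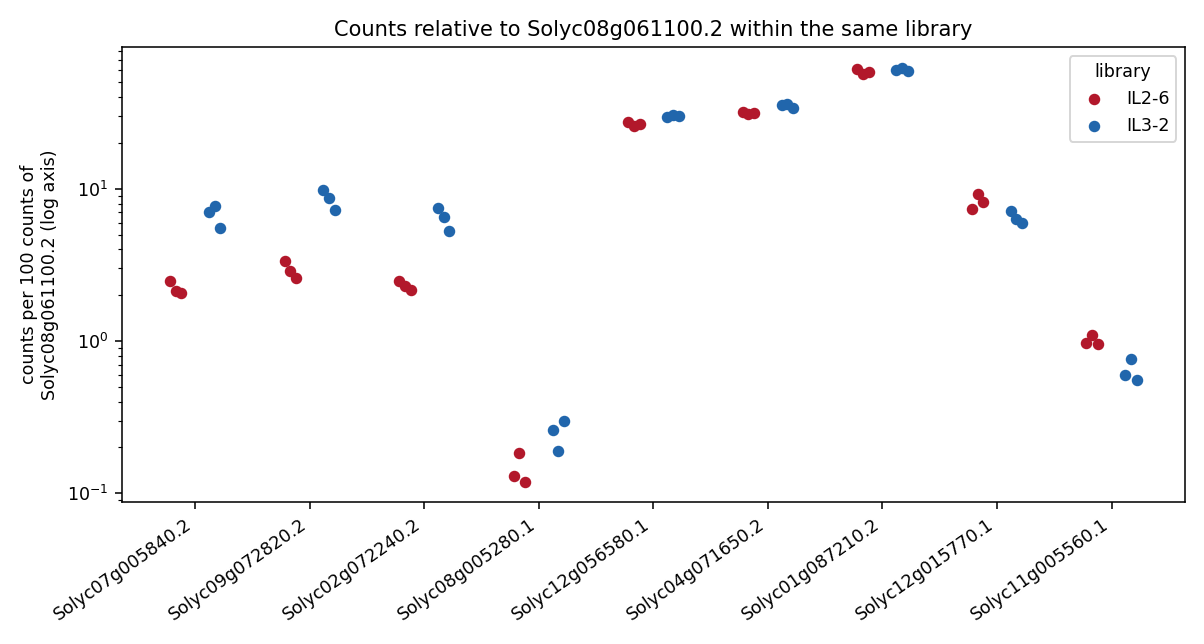
Counts of 9 cellulose synthase genes per 100 counts of Solyc08g061100.2 in the same library (log axis), in 3 IL2-6 libraries (red) and 3 IL3-2 libraries (blue). The first 3 genes, Solyc07g005840.2, Solyc09g072820.2 and Solyc02g072240.2, stand 2.06 to 3.36 in IL2-6 and 5.30 to 9.89 in IL3-2; heights of different genes also reflect transcript length and are not compared.

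The 3 genes with the largest falls had proportions to each other that overlapped between the lines. Solyc02g072240.2 had 0.732, 0.801 and 0.836 counts for each count of Solyc09g072820.2 in the IL2-6 libraries, against 0.754, 0.750 and 0.732 in the IL3-2 libraries. All 3 pairs among them overlapped between the lines, and their log2 ratios differed by 0.05 to 0.14. Set against the 4 genes with falls under 2-fold, all 12 pairs were without overlap, and the log2 ratios differed by 1.29 to 1.60. Of all 45 pairs of members, 33 were without overlap. The share over pairs of other genes was not computed, and the CPM of single genes did not overlap for 67.7% of all tested genes. The count of pairs is therefore not read as a trait of the family. These groups were formed from the same fold changes, so the numbers describe the members and test nothing. With 3 libraries a line, an exact permutation test of such a ratio cannot go below p = 0.1.

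Among the 4 genes with smaller falls, Solyc04g071650.2 and Solyc12g056580.1 had the most similar profiles over the 6 libraries, with a root mean square distance of 0.036 between their log2 levels, each centred on its own mean. The pair of Solyc01g087210.2 and Solyc08g061100.2 came next, at 0.039. Within each of these pairs the count ratios overlapped between the lines. The other 4 pairs among these genes had no overlap, with log2 ratios that differed by 0.13 to 0.18, while 33 of all 45 pairs had none. The closest pair among the 3 genes with the largest falls was Solyc02g072240.2 and Solyc09g072820.2, at 0.073. The widest distance among all 45 pairs was 1.08, between Solyc07g005840.2 and Solyc11g005560.1. These distances hold the difference between the lines as well as the spread within them. They also hold counting noise, which is larger for genes with fewer counts. They therefore do not rank likeness between pairs of unlike count depth. Within lines, Solyc04g071650.2 and Solyc12g056580.1 stood 0.031 apart in IL2-6 and 0.039 in IL3-2. Solyc01g087210.2 and Solyc12g056580.1 were nearer there, at 0.005 and 0.019.

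Some of the members, not all, also deviated together among the libraries of 1 line. In IL3-2, all 4 genes with smaller falls were lowest in replicate 1, by 0.09 to 0.13 below the line mean on the log2(CPM + 0.5) scale. The 3 genes with the largest falls were lowest in replicate 3 of that line, at −0.20 to −0.17. In IL2-6, all 7 genes were highest in replicate 1, and the 4 genes with smaller falls were all lowest in replicate 2. Solyc12g015770.1, Solyc08g005280.1 and Solyc11g005560.1 were instead highest in IL2-6 replicate 2, at 0.12, 0.16 and 0.07. In IL3-2 they were lowest in replicate 3, replicate 2 and replicate 1, in that order. In IL2-6, Solyc08g005280.1 varied by 21.3% and Solyc11g005560.1 by 5.57%, where counting alone gives 35.4% and 13.3%. The order of the IL2-6 libraries is therefore not resolved for these genes. Over all genes, IL2-6 replicate 2 and IL3-2 replicate 1 were the libraries farthest from the others of their line. The chi-square per degree of freedom was 8.70 and 11.2 for the IL2-6 pairs with replicate 2, against 2.69 for the pair without it, and 8.29 and 7.29 for the IL3-2 pairs with replicate 1, against 2.33. Whether the members' deviations follow these libraries was not tested. The share of all tested genes that are highest or lowest in the same libraries was not computed, so these deviations are not particular to the family. Each line has 3 libraries, so these shared deviations were given as values without a test.

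**Figure D4:**
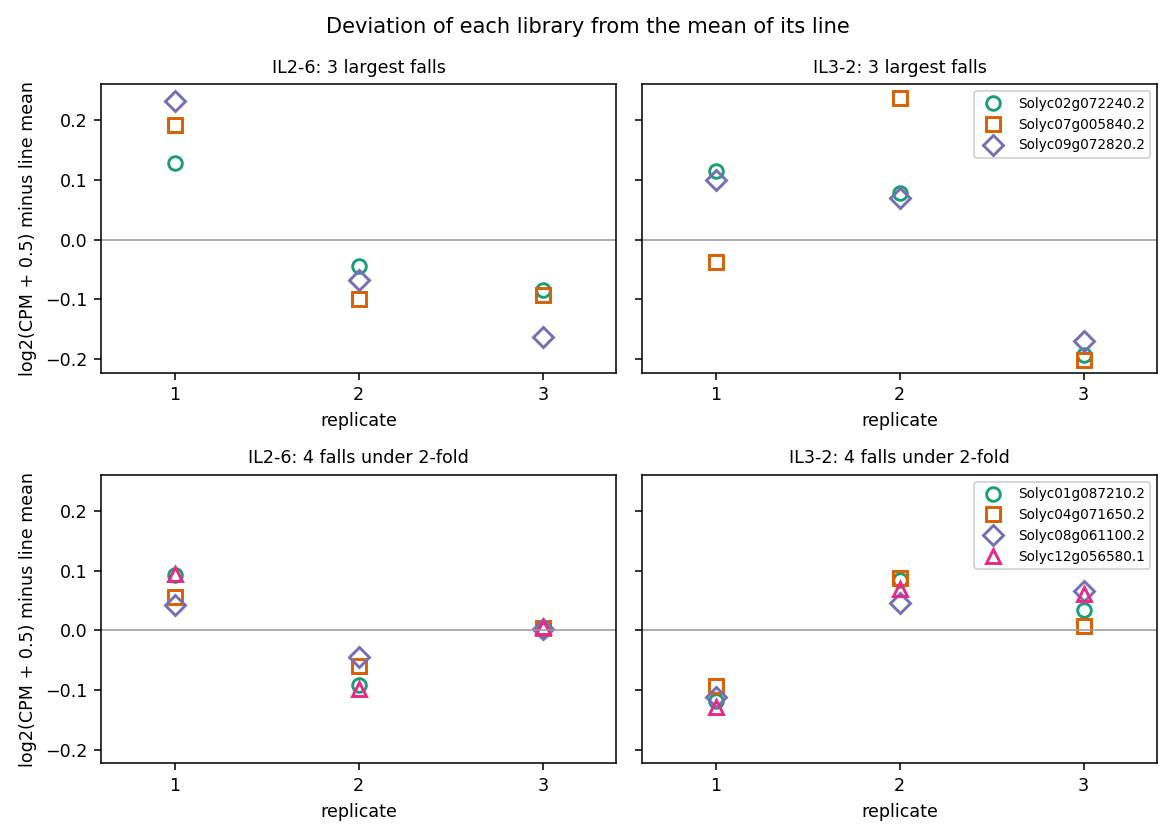
Deviation of each library from the mean of its line on the log2(CPM + 0.5) scale, for the 3 genes with the largest falls (top) and the 4 genes with falls under 2-fold (bottom), in IL2-6 (left) and IL3-2 (right). In IL3-2 the top genes are lowest in replicate 3, while the bottom genes are lowest in replicate 1.

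Summed over the family, the members had 722, 664 and 690 CPM in the IL2-6 libraries and 885, 991 and 962 CPM in the IL3-2 libraries. The 4 genes with smaller falls made up 92.8% ± 0.43 of all CesA counts in IL2-6 and 88.6% ± 1.29 in IL3-2 (SD, n = 3 each). Solyc07g005840.2, Solyc09g072820.2 and Solyc02g072240.2 together made up 3.19% ± 0.291 in IL2-6 and 8.52% ± 1.11 in IL3-2 (SD, n = 3 each). Their summed level was 22.1 ± 2.77 CPM in the IL2-6 libraries and 80.4 ± 9.13 CPM in the IL3-2 libraries (SD, n = 3 each). Solyc12g015770.1, whose CPM values overlapped between the lines, took 3.54% ± 0.437 of the CesA counts in IL2-6 and 2.54% ± 0.212 in IL3-2 (SD, n = 3 each). Long transcripts give more counts than short ones at the same abundance, so these shares follow a gene between lines and do not rank the genes.

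By their identifiers, the 10 genes lie on chromosomes 1, 2, 4, 7, 8, 9, 11 and 12, with a pair each on chromosomes 8 and 12. None lies on chromosome 3, for which IL3-2 is named. Solyc02g072240.2 lies on chromosome 2, for which IL2-6 is named, and is tested gene 814 of 2226 there in identifier order. Among its 10 nearest tested neighbours, 5 on each side, none differed by 2-fold, and their log2 fold changes ran from −0.72 to 0.76 with a median of −0.10. The 10 neighbours of Solyc07g005840.2 likewise held no 2-fold difference, with log2 fold changes from −0.74 to 0.19. The neighbours of Solyc09g072820.2 held 4 falls of at least 2-fold, and their log2 fold changes ran from −2.76 to 0.58 with a median of −0.29. Those of Solyc04g071650.2 also held 4, and ran from −7.35 to 0.26 with a median of −0.65. Solyc08g061100.2 and Solyc12g015770.1 had 3 such neighbours each, and Solyc12g056580.1 had 2. Solyc01g087210.2 and Solyc11g005560.1 had 1 each, and Solyc08g005280.1 had 0. Over all tested genes, 12.1% were called with a fall of that size. Solyc01g087210.2 and Solyc08g005280.1 each also had 1 neighbour at least 2-fold higher in IL2-6, against 4.89% of all tested genes.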

How the data were processed

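Gene counts were deposited as 1 table per library with raw, whole-number counts, which the authors did not normalize in the tables. Per the submitters' processing notes, the tools included TopHat2, HTSeq, edgeR, Trimmomatic, CASAVA 1.8.2 and SAMtools 1.9, whose order and roles are not stated. For the counting, the genome build, annotation and strand setting are among the details that the sources used here leave unstated. The M82 variant records were not used.

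The titles gave each library its line. Genes were kept with filterByExpr by line, which left 20823, and scaled with TMM factors (0.928 to 0.958 in IL2-6, 1.05 to 1.06 in IL3-2). Lines were compared over the 6 libraries by a quasi-likelihood F test in edgeR 4.0.16 (R 4.3.3), with no term but line, with Benjamini-Hochberg adjustment over all genes tested, and the fit was tested on simulated data. Standard errors are the absolute log2 fold change divided by the square root of F. Intervals of fold changes are 95% intervals from the fit. No pair of libraries of 1 line agreed within sampling noise (chi-square per degree of freedom 2.33 to 11.2 over genes with at least 20 counts).

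All 10 members were named. The members and lists were chosen with earlier results of these data known. Lists of other wall genes, cell type markers, the split into primary and secondary wall subunits, levels per length and the naming of genes with a similar profile needed gene descriptions or lengths, which were not used here, so none was run. Alternatives were DESeq2 1.42.0, limma-voom (limma 3.58.1), other scalings and filters, thinning, a replicate block and leaving out each library.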

Additional observations from a re-analysis of the deposited data

How the results depend on the processing

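The number of members lower in IL2-6 was 8 under DESeq2, limma-voom, RLE factors, upper-quartile factors, raw library totals, no filter, thinning to the smallest library and each left-out library. Each count of 8 includes Solyc08g005280.1, which passed the filter of the main fit through its IL3-2 libraries alone. Of 150 alternative values for single members, 146 kept their direction and side of the threshold. The 150 include the values relative to the median of all genes, which could not change side of the threshold. With at least 2-fold asked for in addition, 4 members were called, all 4 lower (3 of 9 without Solyc08g005280.1, and 3 of 10 without IL3-2 replicate 3), and 3539 genes in all, by construction of that threshold. Leaving out each library in turn gave 8 to 9 members called, 8 to 8 lower and 0 to 1 higher, the 1 being Solyc11g005560.1 without IL3-2 replicate 2 (log2 fold change 0.50), and 11970 to 13299 genes in all. The log2 fold change of Solyc12g015770.1 was −0.14 with raw library totals, −0.034 without IL2-6 replicate 2 and −0.0054 without IL3-2 replicate 3, and ran from −0.034 to 0.081 over the left-out libraries, none past the threshold; the cause was not tested. Changes taken relative to the median of all genes were chosen after seeing the data and kept the p-values of the main fit. Their 8 lower and 0 higher therefore repeat the main calls and are no separate check.

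Deviations from the line mean did not go together in same-numbered libraries (Pearson r across genes of −0.17 to −0.01 in 3 comparisons), which gives no sign of pairing. A fit that takes the replicate number as a block called 12496 genes and 8 members. By DESeq2, 11972 genes were called, 11968 of them shared with the 13191 of edgeR. Other settings for lists of other wall genes were not run, since those lists needed descriptions. At 7 to 9 counts per IL2-6 library, the size of the fall of Solyc08g005280.1 is poorly fixed.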
